A study of Homo sapiens with 9 samples.

Results

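The kinases that carry the signal from RAS to the nucleus were followed in A375P cells, an established human melanoma line with a mutant BRAF kinase. The members are 8 genes, listed by name: the RAF kinases ARAF and BRAF, the MEK kinases MAP2K1 and MAP2K2, the ERK kinase MAPK3 (ERK1), and the RSK kinases RPS6KA1, RPS6KA2 and RPS6KA3. They were found by gene symbol on a gene-level exon array, where each row of values is a transcript cluster, meaning all probes over 1 transcribed region. Of 35446 rows, 9 matched. ARAF, MAPK3, RPS6KA1, RPS6KA2 and RPS6KA3 each had 1 row with no other symbol. MAP2K1 and MAP2K2 had 2 rows each, and all 4 list a second gene, so they are given apart. BRAF matched no row and is not analysed here.

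All cells were A375P, grown in serum-containing medium and treated for 2, 6 or 24 h with 1 µM PD184352, a MEK inhibitor, with 0.4 µM PLX4720, a RAF inhibitor, or with DMSO, their solvent. The series asks which genes respond to the mutant kinase and to MEK. There were 9 deposited columns, 1 for each treatment and time. The design text speaks of triplicates, and the sources used here do not state whether a column is 1 array or a mean of several. A single culture line was used, so nothing here speaks of other melanoma lines. The melanocytic label was checked on 9 markers, of which TYR and DCT had no row with 1 symbol. By percentile of mean intensity among 17047 genes, PMEL stood at 98.9, SOX10 at 97.0, MITF at 94.9, EDNRB at 89.4 and S100B at 70.2. The pigment genes MLANA, at 33.7, and TYRP1, at 17.9 and too dim to be tested, were low. Among immune markers PTPRC stood at 1.57, LYZ at 9.86, CD3E at 12.1 and CD14 at 39.7, while CD68, a lysosomal protein used as a macrophage marker, stood at 98.6. Epithelial markers with a row of 1 symbol ran from 18.3 (CDH1) to 58.0 (KRT14). Fibroblast markers ran from 4.46 (DCN) to 52.5 (COL1A1), and endothelial markers from 11.4 (PECAM1) to 58.3 (VWF). The highest of each thus stood above MLANA and TYRP1.

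In this cascade, active RAS recruits RAF kinases, RAF phosphorylates MEK, MEK phosphorylates ERK, and ERK activates RSK and enters the nucleus, where it drives transcription. ERK also induces its own brakes, among them the phosphatase DUSP6 and the Sprouty proteins. In melanoma with mutant BRAF the cascade runs without a signal from RAS. The array reads transcript levels and not kinase activity, which both compounds change at the protein.

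Levels are log2(intensity + 1), and a change is a difference on that scale. A change at 1 time is the mean of the PD184352 and PLX4720 columns minus the DMSO column. Its standard error (SE) comes from how far both compounds differ at the same time, pooled over the 3 times. Limma moves this spread toward that of all genes tested, so the SE is not the gene's own alone. It does not come from replicate cultures. Calls were made at adjusted p under 0.05 (limma, Benjamini-Hochberg over 12785 genes). That the cells responded is seen in 2 known ERK-induced genes. At 24 h SPRY4 was at −4.06 (SE 0.25) and DUSP6 at −2.84 (SE 0.56), and both passed.

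The RSK transcripts were lower with both inhibitors at 24 h than in DMSO at that time. RPS6KA1 was 1.27-fold lower than in DMSO, RPS6KA3 1.25-fold and RPS6KA2 1.23-fold. ARAF and MAPK3 did not pass, and none of the 5 was called at 2 h, at 6 h or in the mean over the times. Thus 3 of 5 members were called lower at 24 h, in a comparison where 19.2% of all genes tested were called lower and 31.6% were called either way. All 5 had passed the filter on dim genes. Without the PLX4720 24 h column 0 of the 5 were called by limma, and against the mean of the 3 DMSO columns 2 were, RPS6KA1 lower and MAPK3 higher. Against that mean 38.7% of all genes tested were called either way. Without the PLX4720 24 h column PD184352 stands alone at 24 h, so that count is not set against a share of all genes. In the fit with all columns the median change of the 5 was −0.30, against −0.01 over all genes. The RSK changes lay well inside the range of the whole array, whose 5th and 95th percentiles were −0.76 and 0.52.

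**Figure D1:**
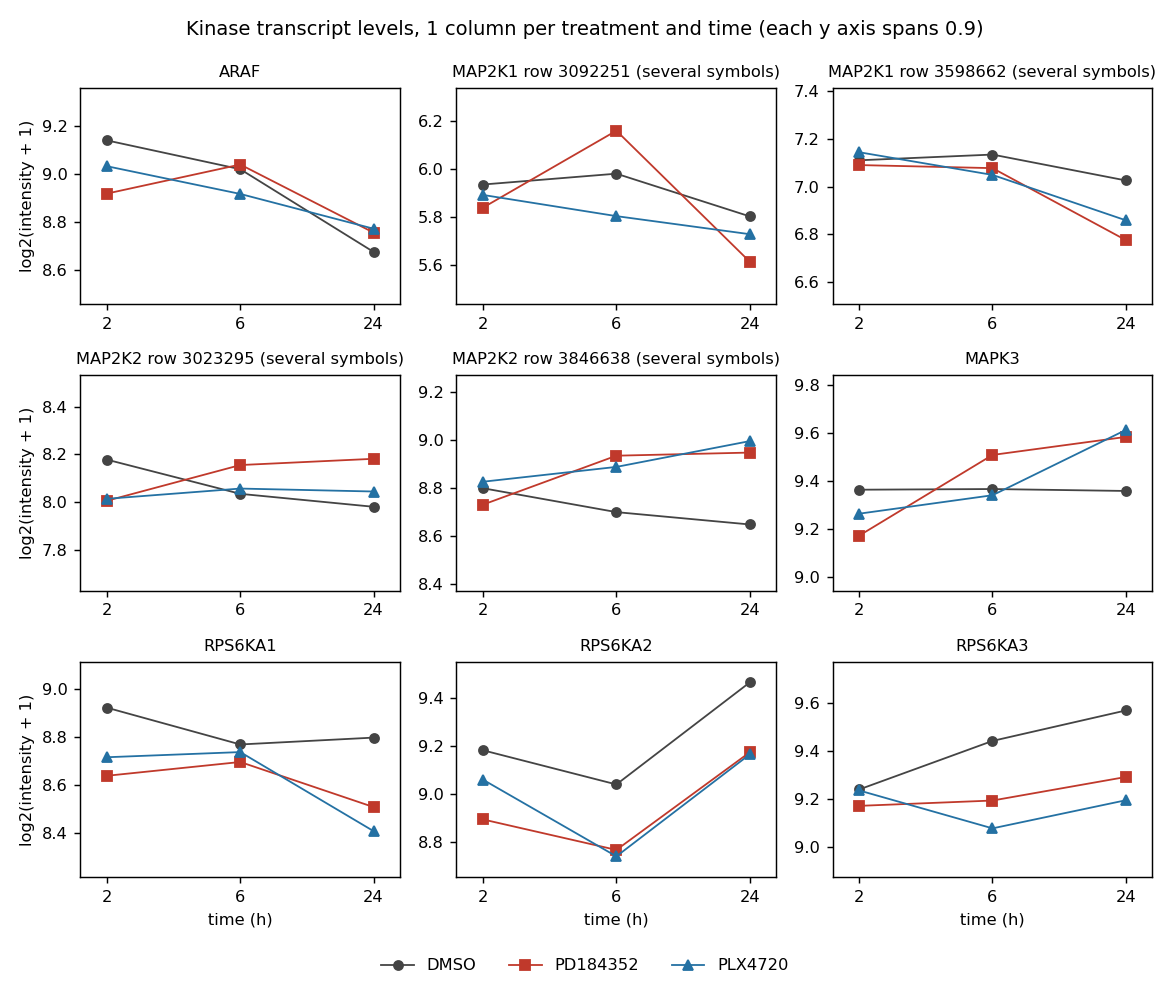
Level of each member row, as log2(intensity + 1), against time in hours on an evenly spaced axis, with 1 point per treatment and time and lines joining points of 1 treatment. Each y axis spans the same height. The DMSO points lie above both inhibitor points at every time for RPS6KA1, RPS6KA2 and RPS6KA3.

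ARAF, a RAF kinase that also feeds MEK, did not pass at any time. In DMSO its level was 9.14, 9.02 and 8.67 at 2, 6 and 24 h, so that the range over DMSO columns, 0.47, was above every inhibitor difference. With PD184352 it was at 8.92, 9.04 and 8.75, and with PLX4720 at 9.03, 8.92 and 8.77. All 6 inhibitor columns lay within the DMSO range. The changes were −0.16 (SE 0.09, adjusted p = 0.728), −0.04 (SE 0.09, adjusted p = 0.891) and 0.09 (SE 0.09, adjusted p = 0.558). At 24 h the 95% interval ran from −0.12 to 0.30, which leaves room for a change of that size.

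The MEK genes can be read only from rows shared with another gene. They were tested in a fit over all 17039 rows with at least 1 symbol that passed the same filter. MAP2K1 shares its rows with SNAPC5, a subunit of a complex for small nuclear RNA genes, which overlaps it on the same chromosome. MAP2K2 shares its rows with LOC407835, listed as a transcribed pseudogene on another chromosome. Which of the genes gave the signal cannot be told from these values.

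A MAP2K2 row, transcript cluster 3846638, rose at 24 h. In DMSO it was at 8.80, 8.70 and 8.65 at 2, 6 and 24 h. With PD184352 it was at 8.73, 8.93 and 8.95, and with PLX4720 at 8.83, 8.89 and 8.99. Above all DMSO columns were 5 of 6 inhibitor columns, all but PD184352 at 2 h. PLX4720 at 2 h was among them by only 0.027. Of all rows 27.2% had both 24 h columns there, and a share for 5 of 6 columns was not counted. The change was −0.02 (SE 0.09) at 2 h, 0.21 (SE 0.09, adjusted p = 0.320) at 6 h and 0.32 (SE 0.09, adjusted p = 0.0247) at 24 h, a 1.25-fold difference. In this fit 10.8% of rows were called higher, 16.2% lower and 27% either way at 24 h. The call was kept under all 7 other processing settings run on rows, at 0.26 to 0.40, and was lost without the PD184352 24 h column (adjusted p = 0.0551) or the PLX4720 24 h column (adjusted p = 0.0879).

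The other MAP2K2 row, transcript cluster 3023295, did not pass. It was at 8.18, 8.04 and 7.98 in DMSO, at 8.01, 8.16 and 8.18 with PD184352, and at 8.01, 8.06 and 8.05 with PLX4720. Its change was −0.17 (SE 0.09, adjusted p = 0.772) at 2 h and 0.13 (SE 0.09, adjusted p = 0.370) at 24 h. Both rows thus had a higher value at 24 h than at 2 h relative to DMSO, and neither passed the F-test over times, with adjusted p-values of 0.225 and 0.345.

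Of the MAP2K1 rows, transcript cluster 3598662 was at 7.11, 7.13 and 7.03 in DMSO, at 7.09, 7.08 and 6.78 with PD184352 and at 7.14, 7.05 and 6.86 with PLX4720. Among the inhibitor columns, those of 24 h alone were below all DMSO columns. Both 24 h columns were below all DMSO columns in 28.8% of rows, whatever the earlier columns did. The 24 h change was −0.21 (SE 0.08, adjusted p = 0.112), which did not pass, and it passed at −0.27 (adjusted p = 0.00865) against the mean of the 3 DMSO columns. The other row, transcript cluster 3092251, was dim, at 5.61 to 6.16, below the filter, and was not tested. At 6 h it was 0.18 above DMSO with PD184352 and 0.18 below it with PLX4720.

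MAPK3 encodes ERK1, the last kinase of the cascade before RSK. Its DMSO levels were the most even of all members, at 9.36 to 9.37 at the 3 times. With PD184352 it was at 9.17, 9.51 and 9.59, and with PLX4720 at 9.27, 9.34 and 9.61 at 2, 6 and 24 h. Both inhibitor columns were below all DMSO columns at 2 h and above all of them at 24 h. The latter held for 27.7% of the genes tested, and a share for the former was not counted. The DMSO columns spanned only 0.008, so even a small difference falls outside them. The change was −0.15 (SE 0.10, adjusted p = 0.762) at 2 h, 0.06 (SE 0.10, adjusted p = 0.848) at 6 h and 0.24 (SE 0.10, adjusted p = 0.0902) at 24 h. The 24 h value did not pass, and it passed at 0.34 (adjusted p = 0.0118) after quantile normalization and at 0.24 (adjusted p = 0.0201) against the mean of the 3 DMSO columns. The difference between the 24 h and the 2 h change was 0.39 (SE 0.14), and the F-test over the 3 times gave an adjusted p of 0.198.

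RSK kinases are ERK's cytoplasmic and nuclear partners: ERK binds them and switches them on, and they phosphorylate translation factors and transcription factors in turn. RefSeq (GRCh38.p14) lists several start sites for each of the 3 RSK genes. The 250 bases before the first listed start are shown because all 3 genes were called lower at 24 h, with matches to GCGGGGGCG, the motif of EGR factors, in capitals. EGR1 is itself an ERK-induced factor. The windows are chr1:26529511-26529760 on the plus strand, chr6:166862526-166862775 and chrX:20267091-20267340, the last 2 on the minus strand, each read 5′ to 3′.
RPS6KA1: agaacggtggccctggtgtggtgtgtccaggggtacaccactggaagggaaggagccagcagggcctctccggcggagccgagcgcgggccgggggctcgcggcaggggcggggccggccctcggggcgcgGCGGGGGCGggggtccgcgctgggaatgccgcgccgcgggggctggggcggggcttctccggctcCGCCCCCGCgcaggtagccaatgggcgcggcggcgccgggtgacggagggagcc
RPS6KA2: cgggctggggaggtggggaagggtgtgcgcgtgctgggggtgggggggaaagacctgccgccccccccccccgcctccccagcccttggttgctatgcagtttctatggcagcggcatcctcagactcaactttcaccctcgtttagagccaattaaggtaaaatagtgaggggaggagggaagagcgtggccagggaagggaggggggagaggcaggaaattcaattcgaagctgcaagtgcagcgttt
RPS6KA3: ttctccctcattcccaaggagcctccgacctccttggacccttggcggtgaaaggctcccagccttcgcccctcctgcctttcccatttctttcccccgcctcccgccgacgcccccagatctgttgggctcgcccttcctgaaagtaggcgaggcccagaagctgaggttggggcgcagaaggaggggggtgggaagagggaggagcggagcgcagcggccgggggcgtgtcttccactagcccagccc
RPS6KA1 held 2 EGR matches, beginning 119 and 54 bases before the start, and 4 matches to the GC box GGGCGG, of which 2 overlap the EGR matches. RPS6KA2 held 1 GC box and no EGR match in the window shown, and RPS6KA3 held neither. Both strands were searched. Of the 7 RSK windows in the table, 1 held the EGR motif, which 4.72% of all 35116 windows of that length hold, and 4 held a GC box, found in 42.6%. The ETS motif CCGGAAG (8.52% of all windows) and the AP-1 motif TGACTCA (4.20%) were in 0 of the 7. The array reads a gene as a whole and does not tell which start was used.

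RPS6KA1 (RSK1) was below DMSO at every time. In DMSO it stood at 8.92, 8.77 and 8.80 at 2, 6 and 24 h. With PD184352 it was at 8.64, 8.70 and 8.51, and with PLX4720 at 8.72, 8.74 and 8.41. All 6 inhibitor columns were below all 3 DMSO columns, which held for 5.23% of the genes tested, and both 24 h columns were below all DMSO columns in 30.6%. The gap was narrow at 6 h, where the differences were −0.07 and −0.03, and widest at 24 h, at −0.29 with PD184352 and −0.39 with PLX4720. The change at 24 h was −0.34 (SE 0.09, adjusted p = 0.0151), after −0.25 (SE 0.09, adjusted p = 0.559) at 2 h and −0.05 (SE 0.09, adjusted p = 0.853) at 6 h. The call at 24 h was kept under all 9 other processing settings, at −0.37 to −0.30. It was lost without the PLX4720 24 h column, at −0.29 (adjusted p = 0.0727).

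RPS6KA2 (RSK3) varied with time under every treatment. In DMSO it was at 9.18, 9.04 and 9.47, and the range over the 3 DMSO columns was 0.43. With PD184352 it was at 8.89, 8.77 and 9.17, and with PLX4720 at 9.06, 8.74 and 9.17. Each inhibitor column was below the DMSO column of its own time, but all 3 treatments dipped at 6 h and were high at 24 h. At 24 h the inhibitor columns lay within the range of the DMSO columns. The change was −0.21 (SE 0.09, adjusted p = 0.676) at 2 h, −0.29 (SE 0.09, adjusted p = 0.159) at 6 h and −0.30 (SE 0.09, adjusted p = 0.0354) at 24 h.

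Against the mean of the 3 DMSO columns the 6 h change of RPS6KA2 was −0.48 and passed (adjusted p = 0.0370). The call at 24 h was the least stable of the 3. It ended under that same control, at −0.06 (adjusted p = 0.722), after quantile normalization, at −0.20 (adjusted p = 0.0679), and with no filter on dim genes (adjusted p = 0.0564). It also ended without any 1 of the 4 inhibitor columns of 6 h and 24 h, where the adjusted p was 0.0552 to 0.0775. Averaged over the 3 times its change was −0.26 (SE 0.05, adjusted p = 0.111), which did not pass although it was lower in 6 of 6 columns.

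RPS6KA3 (RSK2), the X-linked member whose loss causes Coffin-Lowry syndrome, was close to DMSO at 2 h and below it later. In DMSO it stood at 9.24, 9.44 and 9.57 at 2, 6 and 24 h. With PD184352 the levels were 9.17, 9.19 and 9.29, and with PLX4720 they were 9.24, 9.08 and 9.19. The DMSO level was thus higher at the later times, while the inhibitor columns stayed in a range of 0.21. Below all DMSO columns were 5 of 6 inhibitor columns, a pattern whose share over all genes was not counted. PLX4720 at 2 h was among them by a difference of only −0.004, and the exception was PD184352 at 24 h. The change was −0.04 (SE 0.09) at 2 h, −0.31 (SE 0.09, adjusted p = 0.126) at 6 h and −0.33 (SE 0.09, adjusted p = 0.0224) at 24 h. Set against the mean of the 3 DMSO columns, the 24 h change was −0.17 (adjusted p = 0.182), and without the PLX4720 24 h column it was −0.28 (adjusted p = 0.0907), so both ended the call.

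Over the 3 RSK genes, 18 of 18 differences between an inhibitor column and the DMSO column of its time were below 0. At 24 h they ran from −0.39 to −0.28. For 14.6% of all genes tested, all 6 differences were below 0. Both compounds share each DMSO column, so 1 high DMSO column lowers both differences. The 99th percentile of intensity was 1681 to 1754 in DMSO and 1550 to 1654 with inhibitor, and the 5 genes stood between the 80.3 and the 91.3 percentile of mean intensity. At 24 h 12.5% of all genes tested were called higher and 31.6% either way. Of the 6 tested melanocyte markers 5 were called higher, S100B by 0.84 (SE 0.09) and MLANA by 0.67 (SE 0.10) among them. MITF differed less, at 10.15 in DMSO, 10.44 with PD184352 and 10.30 with PLX4720 at 24 h. The summed intensity of the 7 markers was 4653 to 4837 in DMSO and 4328 to 6749 with inhibitor, and its part in the RSK changes was not tested. Of markers of other cell types, 0 of 3 epithelial, 0 of 5 fibroblast and 0 of 3 endothelial genes were called by limma at 24 h, with 1 fibroblast gene, PDGFRB, whose 95% interval lay above 0, and 1 of 2 immune genes, CD68, was higher by 0.73 (SE 0.10). After quantile normalization, which makes the columns' distributions equal, RPS6KA1 was at −0.30 and RPS6KA3 at −0.24 at 24 h, and both passed.

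**Figure D2:**
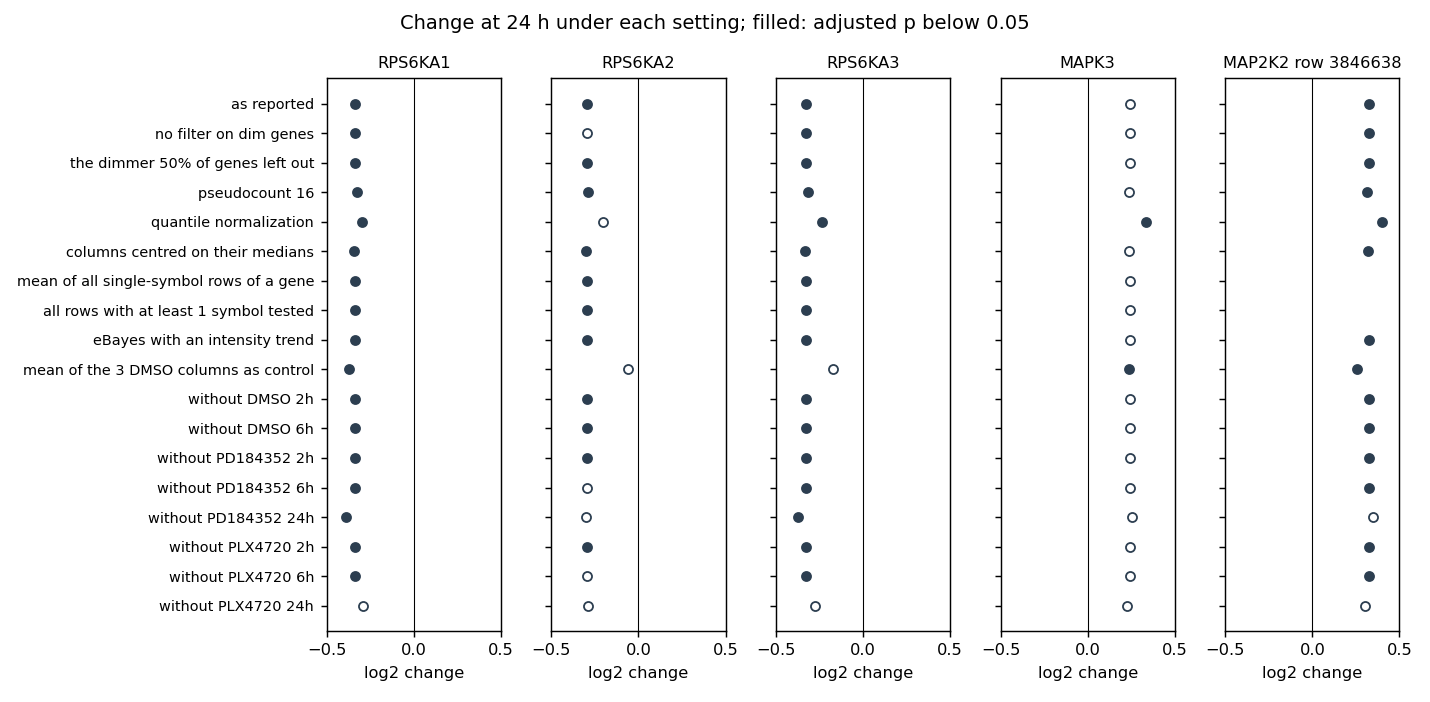
Log2 change at 24 h of 5 member rows (panels) under each processing setting (y axis), with filled points where the adjusted p was below 0.05. RPS6KA1 keeps its place near −0.34, and RPS6KA2 moves to −0.06 against the mean of the 3 DMSO columns.

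The compounds, given at different doses, were compared as the mean over the 3 times, with the 9 columns and time as a block. None of the 5 members was called different between them by limma, in a comparison that called 0% of all genes, and 0 of the 5 had an unadjusted p below 0.05. The difference, PD184352 minus PLX4720, was −0.01 for RPS6KA1 (95% interval −0.19 to 0.18), −0.04 for RPS6KA2 (−0.19 to 0.10) and 0.05 for RPS6KA3 (−0.15 to 0.24). It was 0.02 for MAPK3 (−0.21 to 0.24) and −0.0025 for ARAF (−0.18 to 0.18). Differences as large as those bounds remain possible, so the values do not show that the compounds act alike.

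In the mean over the times with either inhibitor, 0 of 5 members were called by limma, where 0.133% of all genes were, and 3 had an unadjusted p below 0.05, namely the RSK genes. With PD184352 alone 0 of 5 were called, against 0.0469% of all genes, and with PLX4720 alone 0 of 5, against 0.00782%, and the same 3 genes had an unadjusted p below 0.05 in each. In the fit over rows none of the 3 tested MEK rows was called in the mean (0.0528% of rows), at 2 h (0.00587%), at 6 h (1.84%) or by the F-test (10.4%), and cluster 3846638 had an unadjusted p below 0.05 in the mean and at 6 h. At 6 h 0 of 5 were called, against 3.29% of all genes, and 2 had an unadjusted p below 0.05 (RPS6KA2 and RPS6KA3). At 2 h 0 of 5 were called, against 0.086%, and RPS6KA1 alone had an unadjusted p below 0.05, at 0.0206. The F-test for a change that differs between the times called 0 of 5, against 14.9% of all genes, with 0 of 5 at an unadjusted p below 0.05.

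The genes most like each called member over the 9 columns, among genes with at least its spread, were as follows. RPS6KA1 was followed most closely by CNNM3 (Pearson r = 0.96) and TOR3A (r = 0.96). RPS6KA2 was followed by RXRG, a retinoid receptor (r = 0.96), and ST3GAL6 (r = 0.94). RPS6KA3 was followed by the homeobox gene PROX1 (r = 0.97) and PIP4P2 (r = 0.95). The MAP2K2 row of cluster 3846638 was followed by TSC22D2 (r = 0.96) and RNF122 (r = 0.95). Each r is over 9 columns that share their times and treatments, and the 2 highest were picked from all tested genes of at least that spread, so these values are a description.

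Around the members, 1 kinase of the same families was further below DMSO at 24 h than the RSK genes. RPS6KA5 (MSK1), a nuclear kinase activated by ERK and p38, was at 8.95, 9.05 and 8.84 in DMSO, at 8.70, 8.38 and 7.82 with PD184352 and at 8.81, 8.06 and 7.84 with PLX4720. All 6 inhibitor columns were below all 3 DMSO columns, as in 5.23% of the genes tested. The gap was wider at 6 h and 24 h than at 2 h. Its change was −0.83 (SE 0.12, adjusted p = 0.00537) at 6 h and −1.01 (SE 0.12, adjusted p = 1.7e-04) at 24 h. Its relative RPS6KA4 (MSK2) was at −0.16 (SE 0.10, adjusted p = 0.268), and RPS6KA6 (RSK4) was too dim to be tested, at 3.86 to 4.04. Of the 11 genes in this list 7 were tested, 1 was lower and 0 higher at 24 h, with a median of −0.03. The pseudokinase scaffold KSR1 was at 0.22 (SE 0.09, adjusted p = 0.0920).

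**Figure D3:**
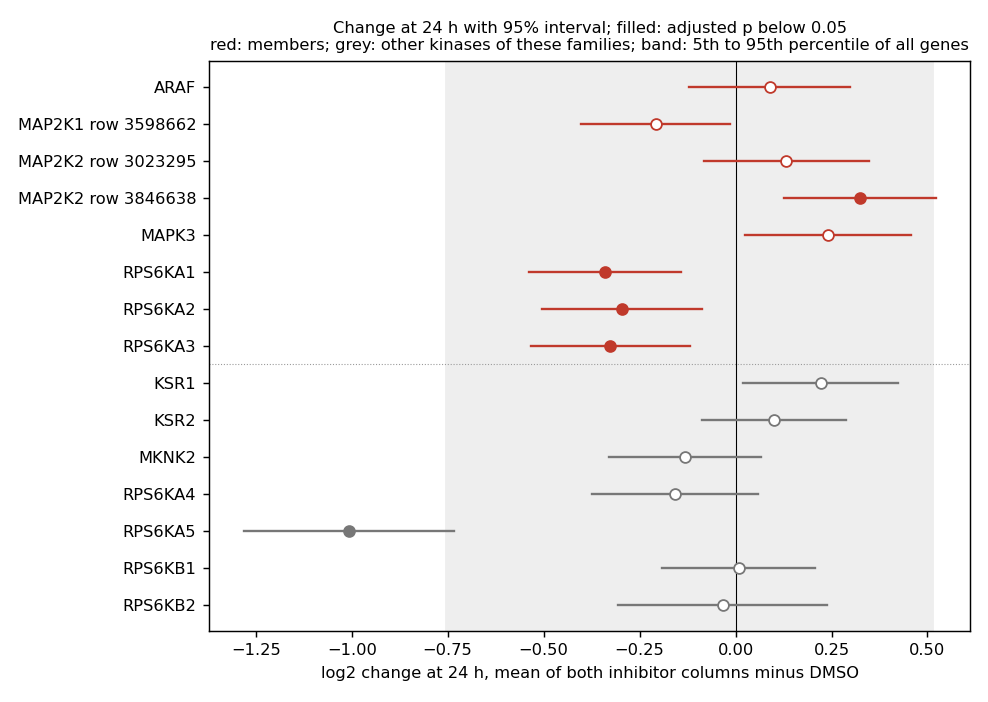
Log2 change at 24 h with limma's 95% interval for the tested member rows (red) and the other tested kinases of these families (grey), filled where the adjusted p was below 0.05, over a band from the 5th to the 95th percentile of all genes. The RSK genes sit near −0.3, the MAP2K2 row of cluster 3846638 at 0.32, and RPS6KA5 at −1.01.

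Upstream, of 15 tested genes for RAS GTPases, exchange factors and GAPs, 3 were higher and 1 was lower at 24 h, with a median of 0.05. RRAS, a RAS-related GTPase, rose by 1.12 (SE 0.09), the exchange factor RASGRP3 by 1.02 (SE 0.10) and the GAP gene RASAL2 by 0.37 (SE 0.11). RASA2, a GAP that turns RAS off, fell by 1.00 (SE 0.10). Of 28 tested scaffolds and regulators of RAF, MEK and ERK, 9 were lower and 0 higher, with a median of −0.14. Among them were the RAF inhibitors SPRED1 (−1.28, SE 0.17) and SPRED2 (−0.78, SE 0.16), the scaffold CNKSR2 (−0.88, SE 0.13) and the phosphatase subunit PPP1CC (−0.56, SE 0.08).

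Beside the cascade, 3 of 15 tested kinases of the JNK, p38, ERK5 and atypical MAP kinase modules were lower at 24 h and 0 higher, with a median of −0.04. They were MAP2K3 (−0.57, SE 0.09), MAPK8 (JNK1, −0.44, SE 0.11) and MAPKAPK2 (−0.44, SE 0.09). Of 15 tested MAP3K kinases 2 were higher, MAP3K12 (0.74, SE 0.10) and TAOK3 (0.36, SE 0.11), and 2 were lower, MAP3K20 (−0.57, SE 0.12) and MAP3K9 (−0.46, SE 0.11). Downstream, of 18 tested genes for RSK substrates 1 was higher and 3 were lower, with a median of −0.13. The mitotic checkpoint kinase BUB1 was at −1.58 (SE 0.11), CEBPB at −0.50 (SE 0.09), EEF2K at −0.40 (SE 0.10) and TSC2 at 0.33 (SE 0.09). The ERK feedback list had 9 of 10 lower, with a median of −0.81. It shares SPRED1 and SPRED2 with the list of scaffolds and regulators, so their falls are counted in both. Over all genes 19.2% were lower, 12.5% were higher and the median was −0.01.

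**Figure D4:**
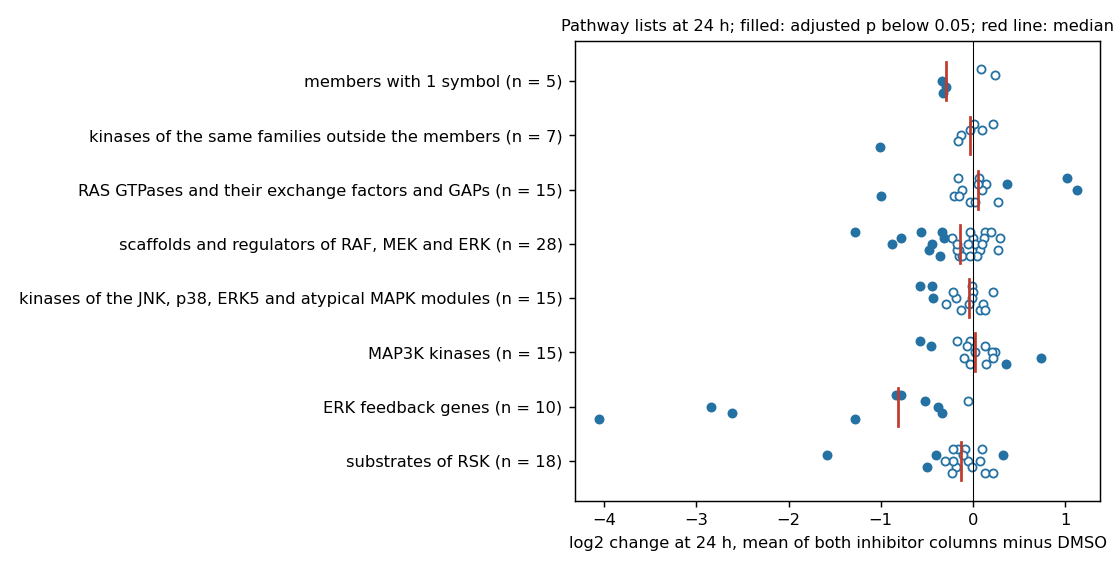
Log2 change at 24 h of each tested gene in the single-symbol members and in 7 pathway lists, with filled points where the adjusted p was below 0.05 and a red line at each median. The members' median is −0.30 and that of the ERK feedback genes −0.81, while the other lists lie between −0.14 and 0.05.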

How the data were processed

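The authors deposited 1 linear intensity per transcript cluster and column. Per the submitters' processing notes, RMA, limma and R 2.8.0 were used, without role or order. No source here names the genome build behind the array, and array coordinates are left out. The number of arrays, with 1 column per group, limits the precision.

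Values were taken as log2(value + 1), without further normalization. Of 35446 rows, 19380 had 1 symbol in GEO's platform table, 3339 several and 12727 none there. For 1794 genes with more than 1 single-symbol row the row with the highest mean was used. Of 17047 genes the dimmest 25% (4262) were left out. Limma 3.58.1 in R 4.3.3 fitted treatment with time as a block (4 residual degrees of freedom), and each time's inhibitor mean against DMSO (3). The fits were tested on simulated data. Members, gene lists and the rule for named genes (all members, up to 4 called genes of a list by 24 h change, 2 genes of like pattern) were chosen with earlier results of these data known. RefSeq (GRCh38.p14) gave names and promoter windows. Alternatives were other filters, pseudocount 16, quantile or median scaling, row averages, all rows, a variance trend, pooled DMSO columns, inhibitor columns alone and leaving out each column.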

Additional observations from a re-analysis of the deposited data

How the results depend on the processing

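No pairing by replicate was possible because every group has 1 column and the replicate number is 1 throughout. Time was the block in the fit of treatment. The number of columns limits every value. For the change at each time the spread used is that between compounds. For the means over times it is that of the treatment effect over the times. Genes called in the mean with either inhibitor (17) were 0 after quantile normalization and 9 over all rows. With PD184352 (6) they were 1 without a filter, 14 with the dimmer 50% left out, 0 after quantile normalization and 1 over all rows. With PLX4720 (1) they were 0 without a filter, after quantile normalization, over all rows and with an intensity trend. At 2 h (11) they were 1 without a filter, 35 with the dimmer 50% left out, 23 with pseudocount 16, 0 after quantile normalization, 24 after median centring, 1 over all rows and 31 against pooled DMSO. At 6 h (420) they were 253 without a filter. Members called at 6 h (0) were 1, RPS6KA2, against pooled DMSO, where 4.79% of all genes were called. Members called at 24 h (3) were 2 without a filter, RPS6KA2 being lost, and the share of all genes there is not given. Against pooled DMSO they were 2, where 38.7% of all genes were called. After quantile normalization RPS6KA1 and RPS6KA3 were called lower, MAPK3 was called higher and RPS6KA2 was lost, where 34.1% of all genes were called. Leaving out each column in turn gave 0 to 545 genes in the mean with either inhibitor, 0 to 388 with PD184352 and 0 to 165 with PLX4720, each highest without the DMSO 2 h column. It gave 0 to 95 genes at 2 h, 205 to 801 at 6 h and 0 to 3 members at 24 h, the 0 without the PLX4720 24 h column.

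Small values changed sign under some settings. After quantile normalization ARAF was 0.035 in the mean with either inhibitor, 0.039 in the mean with PD184352, 0.032 in the mean with PLX4720, 0.0068 between the compounds and 0.043 in the 6 h change. There RPS6KA1 was 0.0079 between the compounds and 0.016 in the 6 h change. There RPS6KA3 was 0.047 in the 2 h change. There MAP2K2 cluster 3023295 was 0.0071 in the mean with PLX4720. There MAP2K1 cluster 3598662 was −0.014 in the 2 h change. There MAP2K2 cluster 3846638 was 0.042 in the 2 h change. After median centring MAP2K2 cluster 3023295 was −0.0044 in the mean with either inhibitor. There MAP2K1 cluster 3598662 was −0.018 in the 2 h change. Against pooled DMSO ARAF was 0.030 in the 2 h change, 0.033 in the 6 h change and −0.18 in the 24 h change. There MAP2K2 cluster 3846638 was 0.063 in the 2 h change.

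Leaving out each column in turn gave ranges that crossed 0 for these values. In the mean with either inhibitor the range was −0.10 to 0.023 for ARAF, −0.044 to 0.15 for MAPK3, −0.048 to 0.10 for MAP2K2 cluster 3023295. In the mean with PD184352 the range was −0.10 to 0.033 for ARAF, −0.036 to 0.16 for MAPK3, −0.010 to 0.14 for MAP2K2 cluster 3023295. In the mean with PLX4720 the range was −0.10 to 0.025 for ARAF, −0.052 to 0.14 for MAPK3, −0.086 to 0.064 for MAP2K2 cluster 3023295. Between the compounds the range was −0.050 to 0.071 for ARAF, −0.043 to 0.11 for MAPK3, −0.078 to 0.047 for RPS6KA1, −0.076 to 0.017 for RPS6KA2, −0.065 to 0.011 for MAP2K1 cluster 3598662, −0.072 to 0.040 for MAP2K2 cluster 3846638. In the 6 h change the range was −0.10 to 0.020 for ARAF, −0.026 to 0.14 for MAPK3. In the 2 h change the range was −0.020 to 0.034 for MAP2K1 cluster 3598662, −0.068 to 0.027 for MAP2K2 cluster 3846638. The cause was not tested.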
